A study of Rattus norvegicus with 8 samples.

Results

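The genes described here encode the machinery of oxidative phosphorylation, the mitochondrial pathway that makes most of the ATP of a kidney tubule cell. They were chosen by rat gene symbol alone: names starting with Ndufa, Ndufb, Ndufc, Ndufs or Ndufv, Sdha to Sdhd, names starting with Uqcr, Cox numbered 4 to 8, and names starting with Atp5. That rule took 85 of the 15637 genes that could be named on the array. No measured value entered the rule, though it was chosen with earlier results of these data known. Of the 85 genes, 84 were bright enough to test: 33 of complex I, 7 complex I assembly factors (the Ndufaf genes), 4 of complex II, 8 of complex III, 16 of complex IV and 16 of complex V. The remaining gene, Cox8c, was not well above background on any of the 8 arrays. Not every member is a structural subunit, since the symbols also took in the assembly factors, the ATP synthase inhibitor Atp5if1 and a pseudogene, Cox6c-ps1, which is counted here with complex IV. Of 118 protein-coding symbols of the rule in the RefSeq table, 84 were matched on the array.

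Electrons from NADH enter the respiratory chain at complex I and those from succinate at complex II, which is also an enzyme of the tricarboxylic acid cycle. They pass through ubiquinone, complex III, cytochrome c and complex IV to oxygen, and the proton gradient that complexes I, III and IV build drives ATP synthase, complex V. The protein-coding members are nuclear genes whose products are imported into mitochondria. The proximal tubule and the thick ascending limb are the parts of the nephron richest in mitochondria, because active transport of sodium and solutes there depends on a steady supply of ATP.

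RNA came from kidneys of male rats labelled as 10 weeks old, taken at day 28, and was measured on Agilent single-colour arrays. The control group received saline (4 arrays) and the treated group received colistin at 30 mg/kg (4 arrays). Colistin is a polymyxin antibiotic that can injure the renal tubule. The labels give no strain and number the samples of a group without naming an animal for each; p-values here therefore reflect the spread among these 8 samples, which may be partly technical. Whole tissue was the labelled source, and in such bulk RNA fewer cells of a type and less RNA per cell cannot be told apart.

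The colistin arrays were brighter, with the 75th percentile of processed signal at 271 to 317 against 156 to 197 on the saline arrays, and 79.1% to 83.9% of spots well above background against 69.3% to 75.8%. Arrays of a group were more alike after colistin, with a mean correlation to the others of their group of 0.873 to 0.896, against 0.777 to 0.826 for saline, where array 4 was lowest. Values below are log2 processed signal relative to each array's own 75th percentile, so a value of 0 marks a probe at that percentile. A fold change is the colistin mean minus the saline mean on that scale, fitted with limma, and an adjusted p is by Benjamini-Hochberg over the 12411 genes tested. A gene was called changed at an adjusted p under 0.05.

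Of the 84 oxidative phosphorylation genes tested, 1 was called changed after colistin. It was Cox6a2, a complex IV isoform best known from heart and skeletal muscle, which was called higher, and 0 members were called lower. Across all genes, 2.00% were called in either direction, 1.46% higher and 0.540% lower, so 1 member of 84 is no larger a share than the background. The median log2 fold change of the 84 members was -0.13, beside -0.14 for all genes, with 31 members above 0 and 53 below. These medians depended on the setting: they were 0.012 for members and -0.34 for all genes with another background correction (normexp), -0.15 and -0.32 with no filter on dim probes, and -0.15 and -0.24 with the strictest filter, well above background on all 8 arrays. Without saline array 4 the members' median was -0.0025, against -0.14 for all genes. Without adjustment, p was under 0.05 for 7 of the 84 members, against 22.7% of all genes. These were Cox6a2, Cox7a2l and Ndufaf5 on the higher side and Ndufaf3, Ndufb8, Sdhc and Uqcrq on the lower; none belonged to complex V.

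The members spread less around that median than genes in general. Their median absolute log2 fold change was 0.33, against 0.71 for all genes. For the 16 tricarboxylic acid cycle enzymes it was 0.35, with 37.5% of their 95% intervals inside 2-fold, close to the members' values. An estimate of over 2-fold in either direction was reached by 5 members, 5.95%, compared with 34.0% of genes: Cox6a2, Ndufaf1, Ndufaf5 and Ndufaf7 on the higher side and Uqcrq on the lower. The 95% interval of the fold change lay wholly inside 2-fold for 27 members, 32.1%, compared with 5.17% of genes. Their standard errors were also smaller, with a median of 0.34 against 0.56. For the other 57 members the interval reached beyond 2-fold, so a change of that size was not excluded. Dim probes were fewer among the members: 81 of the 84 were well above background on all 8 arrays, against 9318 of the 12411 genes tested. The members were not set against genes of similar signal, so the part of brightness in their narrower spread was not tested.

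**Figure D1:**
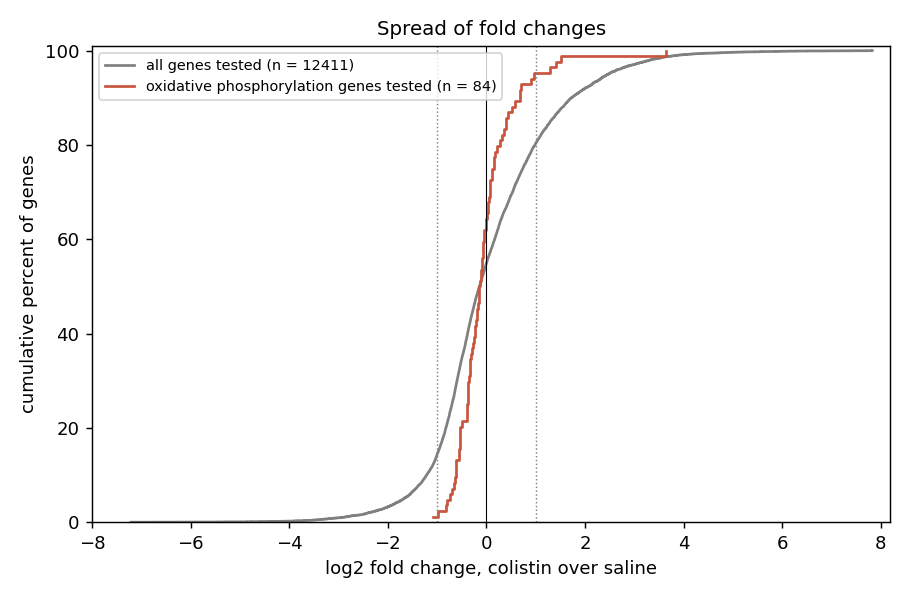
Cumulative share of genes (percent, vertical axis) by log2 fold change of colistin over saline (horizontal axis), for all 12411 genes tested (grey) and the 84 oxidative phosphorylation genes tested (red), with dotted lines at 2-fold in each direction. The curves cross near their medians of -0.14 and -0.13, and the members' curve is the steeper.

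Complex I, the NADH dehydrogenase, had 33 tested members, 0 of which were called, with a median log2 fold change of -0.12 and a range of -0.69 to 0.70. The 7 core subunits, which hold the flavin and iron-sulfur clusters, had a median of -0.31, with 2 above 0 and 5 below. The 26 accessory subunits had a median of -0.10, with 12 above 0 and 14 below. For 10 of the 33 the 95% interval lay within 2-fold.

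Among the core subunits, Ndufv1, which carries the flavin that accepts electrons from NADH, was at 4.09, 4.47, 4.52 and 5.06 on the saline arrays and 4.37, 4.94, 4.51 and 4.09 on the colistin arrays. The groups covered the same range, and the log2 fold change was -0.06 ± 0.33 (SE, adjusted p = 0.928). Ndufs1, the largest core subunit and the holder of several iron-sulfur clusters, had an estimate of 0.36 ± 0.45 (SE, adjusted p = 0.645).

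Ndufb8, an accessory subunit of the membrane arm whose protein is often used as a marker of assembled complex I, came nearest to the threshold in this complex. Its values were 3.33, 3.06, 2.99 and 3.02 on the saline arrays and 2.56, 2.73, 2.33 and 2.14 on the colistin arrays. Every colistin array lay below every saline array. The estimate was -0.66 ± 0.28 (SE), or 1.58-fold lower, with an unadjusted p of 0.0436 and an adjusted p of 0.208. It was below 0 on each of the 3 slides, which follows from the groups not overlapping.

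The other extremes of complex I also missed the threshold. Ndufa10, an accessory subunit of the membrane arm, had the lowest estimate of the complex, -0.69 ± 0.36 (SE, adjusted p = 0.278). Ndufs4, whose loss causes Leigh syndrome, had the highest, 0.70 ± 0.38 (SE, adjusted p = 0.302), and Ndufb11 followed at 0.68 ± 0.47 (SE, adjusted p = 0.401). In both of the latter genes saline array 1 was lowest of all 8, at 0.74 for Ndufs4 and 1.89 for Ndufb11. Without that array the estimates were 0.45 and 0.25, and without saline arrays 1 and 4 they were 0.15 and 0.050. A second probe of Ndufs4 was at -0.58, and the mean of its probes gave 0.063. Ndufa4 is counted with complex I by its symbol but is also described as a subunit of complex IV. It lay between 6.19 and 6.93 on the saline arrays and between 6.21 and 6.70 on the colistin arrays, with an estimate of -0.16 ± 0.29 (SE, adjusted p = 0.764).

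The 7 complex I assembly factors, chaperones and modifying enzymes that are not kept in the finished complex, varied most. Their median log2 fold change was 0.67, with 4 above 0 and 3 below, 0 called, and 0 intervals within 2-fold. Their median standard error of 0.91 was well above the 0.34 of the complex I subunits. The median depended on the array and the setting. It was 1.46 without saline array 4, and -0.05 over the genes well above background on all 8 arrays.

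Ndufaf5, which hydroxylates a core subunit early in assembly, had values of -0.58, -0.77, -0.31 and 0.45 after saline and 1.55, 1.83, 1.19 and -0.12 after colistin. The first 3 colistin arrays exceeded all saline arrays, and colistin array 4 fell inside the saline range. The estimate was 1.41 ± 0.50 (SE, adjusted p = 0.164). Ndufaf3, an early assembly factor, ran the other way: 2.18, 2.80, 1.77 and 2.60 after saline and 1.62, 1.72, 1.52 and 0.56 after colistin, with no overlap. Its estimate was -0.98 ± 0.39 (SE, adjusted p = 0.191).

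Ndufaf1, which helps build the membrane arm, had the largest estimate of the group and a wide error, 1.51 ± 0.91 (SE, adjusted p = 0.341), and was well above background on 3 saline and all 4 colistin arrays. Ndufaf7, a methyltransferase of a core subunit, was well above background on 1 saline and 4 colistin arrays and so was tested only through its colistin signal. Its value was -0.67 on colistin array 4 and between -5.52 and -3.46 on the other 7 arrays. The remaining factors, Ndufaf8, Ndufaf4 and Ndufaf6, had estimates of -0.35, -0.05 and 0.67.

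Complex II, succinate dehydrogenase, had the lowest median of the complexes, at -0.54, and all 4 of its genes had estimates below 0. None was called, and no interval lay within 2-fold. Sdhc, a membrane anchor that binds heme and ubiquinone, was at 4.53, 4.81, 4.78 and 4.58 after saline and at 3.85, 4.21, 4.03 and 3.36 after colistin. Its groups did not overlap. The estimate of -0.81 ± 0.30 (SE), 1.75-fold lower, had an unadjusted p of 0.0251 and an adjusted p of 0.174.

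Sdha, the flavoprotein that oxidises succinate, had values of 4.47, 5.07, 4.90 and 5.94 after saline and 5.09, 4.94, 5.03 and 4.50 after colistin. All colistin values lay within the saline range, and the estimate was -0.20 ± 0.38 (SE, adjusted p = 0.764). Sdhb, the iron-sulfur subunit, had an estimate of -0.55 ± 0.41 (SE, adjusted p = 0.435), and the other anchor, Sdhd, one of -0.53 ± 0.49 (SE, adjusted p = 0.519). Saline array 4 weighed heavily here: Sdhb stood at 6.51 there, against 5.08 to 5.31 on the other saline arrays, and Sdhd at 4.15, the highest of its 8 values. The median of complex II was -0.22 without saline array 4 and -0.78 without saline array 1.

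Complex III, ubiquinol-cytochrome c reductase, had 8 tested members, all with estimates below 0 and a median of -0.22. None was called, and 3 intervals lay within 2-fold. Its cytochrome c1 subunit, Cyc1, lies outside the symbol rule and was at 0.010 ± 0.41 (SE, adjusted p = 0.991). The number of members below 0 was 5 with normexp, 6 with cyclic loess scaling and 6 without saline arrays 1 and 4. With the mean of probes it was 7. Other probes of Uqcr11 were at 0.38 and -0.020, and another of Uqcrb at 0.064. The median of the 8 members was -0.099 without saline array 4 and -0.33 without saline array 3. Uqcrq, a small subunit at the ubiquinone-binding side of the complex, had the largest negative estimate of all members. Its values were 2.33, 2.78, 2.57 and 2.86 after saline and 1.07, 2.08, 1.44 and 1.61 after colistin. All colistin arrays lay below all saline arrays, and the estimate was -1.09 ± 0.32 (SE), 2.12-fold lower, with an unadjusted p of 0.009 and an adjusted p of 0.123. With normexp, which here used the median spot signal, its adjusted p was 0.0324 at an estimate of -0.91, and 27.2% of all genes were then called, 5.55% higher and 21.7% lower.

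Of the catalytic and structural subunits of complex III, Uqcrfs1, the Rieske iron-sulfur protein, had group means of 2.84 ± 0.38 (SD, n = 4) after saline and 2.84 ± 0.38 (SD, n = 4) after colistin. Its interval ran from -0.77 to 0.77. The core proteins Uqcrc1 and Uqcrc2, relatives of mitochondrial processing peptidases, had estimates of -0.28 ± 0.39 (SE, adjusted p = 0.689) and -0.75 ± 0.35 (SE, adjusted p = 0.245). For Uqcrc2, colistin arrays 1 and 4 were low, at 2.37 and 2.25, while colistin arrays 2 and 3, at 3.20 and 3.27, lay beside the saline arrays at 3.25 to 3.84.

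Complex IV, cytochrome c oxidase, had 16 tested members and a median of 0.06, with 10 above 0 and 6 below. It held the called gene. The 11 ubiquitous members, with Cox7a2l counted among them, had a median of 0.08. Of these, 8 were above 0, and 7 had intervals within 2-fold. The 4 isoforms with restricted tissue expression, Cox4i2, Cox6a2, Cox6b2 and Cox8b, ranged from -0.80 to 3.64. Cox7a1, also a muscle isoform, was not analysed here.

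Cox6a2 is the isoform of subunit VIa that replaces Cox6a1 in striated muscle. The processed signal of its probe was 4.82, 4.02, 2.14 and 4.20 units on the saline arrays and 62.2, 45.8, 148 and 86.9 units on the colistin arrays. Relative to the 75th percentile these were -5.02, -5.58, -6.52 and -5.22 after saline and -2.30, -2.75, -0.87 and -1.87 after colistin. The probe was not well above background on any saline array and was on all 4 colistin arrays, so it entered the test through the colistin arrays alone. The fitted log2 fold change was 3.64 ± 0.51 (SE, adjusted p = 0.0153). The saline side was at background, so the size of the rise is uncertain. Setting the colistin mean of -1.95 against a floor on each saline array gave 11.2-fold. The floor was the probe itself or the dimmest probe well above background there, whichever was brighter. It averaged -5.44, and the measured saline mean was -5.58. The dimmest such probe is the lowest floor of this kind, so 11.2-fold is not a minimum. With normexp the log2 fold change was 0.57.

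The call on Cox6a2 was close to the threshold. Its direction held under all 17 alternatives that could test it. Since the probe passed the filter through the colistin arrays alone, that direction was largely set beforehand and adds no evidence. The adjusted p was 0.0534 without colistin array 4, 0.067 with the slide as a block and 0.126 with normexp, where the estimate shrank to 0.57; over all alternatives it lay between 0.00769 and 0.126. On each slide every colistin value lay above every saline value, which follows from the groups not overlapping. Even at its colistin level the signal remained below the array's 75th percentile. Of 16 markers of striated muscle, a list added after the values were seen, 12 could be tested and 0 were called. Their median log2 fold change was -0.44, with 3 above 0 and 9 below and 1 gene lower without overlap, and Myl1, Myh1 and Myh2 were not well above background on any array. The list's summed level was 3.70 to 5.43 on the saline arrays and 3.51 to 4.04 on the colistin arrays, in multiples of the 75th percentile. The part of striated muscle RNA in the Cox6a2 values was not tested.

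The DNA just upstream of the called gene and of the members with the largest estimates on either side among those well above background on all arrays, Uqcrq and Ndufaf5, is given so that their sequences can be set beside the values. Each run is the 250 bases before the annotated start, 5′ to 3′ on the gene's strand, from RefSeq on build GRCr8: chr1:192219717-192219966 (minus strand) for Cox6a2, chr10:38089979-38090228 (minus strand) for Uqcrq and chr3:147961362-147961611 (plus strand) for Ndufaf5. Capitals mark matches to MEF2 (CTANNNNTAG) and E-box (CANNTG) letters in Cox6a2, to GABP letters (CCGGAAG) in Uqcrq and to NRF1 letters (GCGCATGCGC) in Ndufaf5. Both strands were searched, and no marked match overlaps another.
Cox6a2: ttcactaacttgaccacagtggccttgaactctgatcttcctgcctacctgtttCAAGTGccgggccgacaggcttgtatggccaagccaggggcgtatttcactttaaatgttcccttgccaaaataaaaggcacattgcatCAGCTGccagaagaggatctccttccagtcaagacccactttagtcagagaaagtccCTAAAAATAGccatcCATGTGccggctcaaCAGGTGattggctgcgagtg
Uqcrq: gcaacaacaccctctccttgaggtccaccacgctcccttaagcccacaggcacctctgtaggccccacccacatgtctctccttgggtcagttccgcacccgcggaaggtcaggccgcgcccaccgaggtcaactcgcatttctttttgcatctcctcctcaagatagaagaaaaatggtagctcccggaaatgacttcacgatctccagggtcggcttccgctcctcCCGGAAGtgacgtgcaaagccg
Ndufaf5: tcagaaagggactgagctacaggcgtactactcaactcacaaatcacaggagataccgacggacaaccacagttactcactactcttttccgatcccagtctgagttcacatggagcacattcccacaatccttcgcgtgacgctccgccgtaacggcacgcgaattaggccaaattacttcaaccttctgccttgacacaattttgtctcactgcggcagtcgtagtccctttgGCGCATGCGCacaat

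MEF2 and E-box proteins are regulators of muscle genes, and NRF1 and GABP are regulators of nuclear genes for mitochondria. Cox6a2 had 1 MEF2 match, starting at base -50, and 4 E-box matches. Uqcrq had 1 GABP match at -22 and Ndufaf5 1 NRF1 match at -15, and each also had 1 E-box match, at -181 and -143, left in lower case. Among 33469 rat promoters of this length, 3.41% held a MEF2 match, 65.5% an E-box match, 7.27% a GABP match and 0.762% an NRF1 match. Of the 74 members with a promoter entry, 2 (2.70%) held a MEF2 match, 40 (54.1%) an E-box match, 22 (29.7%) a GABP match and 6 (8.11%) an NRF1 match. These are matches of letters, and the arrays hold no measurement of binding.

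Cox7a2l, which links complexes III and IV in supercomplexes, was the member nearest to a call after Uqcrq. It stood at 3.69, 4.07, 3.76 and 4.37 after saline and 4.50, 5.39, 4.83 and 5.09 after colistin. All 4 colistin arrays lay above all 4 saline arrays. The estimate was 0.98 ± 0.32 (SE), or 1.97-fold, with an adjusted p of 0.15. Within the 3 slides it was 1.36, 0.75 and 1.03, where the sign follows from the groups not overlapping. With normexp the estimate was 1.18 and the adjusted p 0.0321.

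Subunit 4 binds ATP and sets the enzyme's response to it, and its isoforms differed in sign. Cox4i1, the ubiquitous form, was at 3.66, 4.16, 4.01 and 4.49 after saline and at 4.61, 4.72, 4.52 and 4.54 after colistin, an estimate of 0.52 ± 0.29 (SE, adjusted p = 0.307). Cox4i2, the form associated with low oxygen and found in lung and vessel walls, was at -0.38, -1.21, -1.42 and -1.56 after saline and at -1.63, -2.27, -1.70 and -2.16 after colistin, an estimate of -0.80 ± 0.36 (SE, adjusted p = 0.231). Neither pair of groups overlapped, and neither gene passed; with normexp, Cox4i1 did, at 0.75 (adjusted p = 0.0324).

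The log ratio of the restricted to the ubiquitous isoform was also taken within each array, as a description of 4 pairs chosen after their values were seen. Cox4i2 relative to Cox4i1 was lower by a log2 difference of -1.32 after colistin, and the arrays of the groups did not overlap. For Cox6a2 relative to Cox6a1 no difference is given, since Cox6a2 was not well above background on any saline array. For Cox6b2 relative to Cox6b1 the difference was -0.65, and for Cox8b relative to Cox8a it was 1.29, with overlapping groups in each. Markers of cells that can carry Cox4i2 were lower in the same arrays. The 6 endothelial markers summed to 33.1 to 52.5 on the saline arrays and 4.79 to 7.19 on the colistin arrays, with 4 called lower, and the 5 smooth muscle and pericyte markers summed to 3.48 to 6.18 and 0.759 to 2.11, with 1 called lower. Their part in the Cox4i2 values was not tested.

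Cox6a1, the partner of Cox6a2 in other tissues, had values of 7.0, 7.32, 7.40 and 7.72 after saline and 7.45, 7.51, 7.49 and 7.20 after colistin. The groups overlapped, and the estimate was 0.05 ± 0.28 (SE, adjusted p = 0.929). Cox5a, a matrix-side subunit, and Cox7a2, the ubiquitous form of subunit VIIa, had estimates of -0.09 and 0.08, both with intervals inside 2-fold. Cox6b2, a testis isoform, had an estimate of -0.54 ± 0.37 (SE, adjusted p = 0.389).

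**Figure D2:**
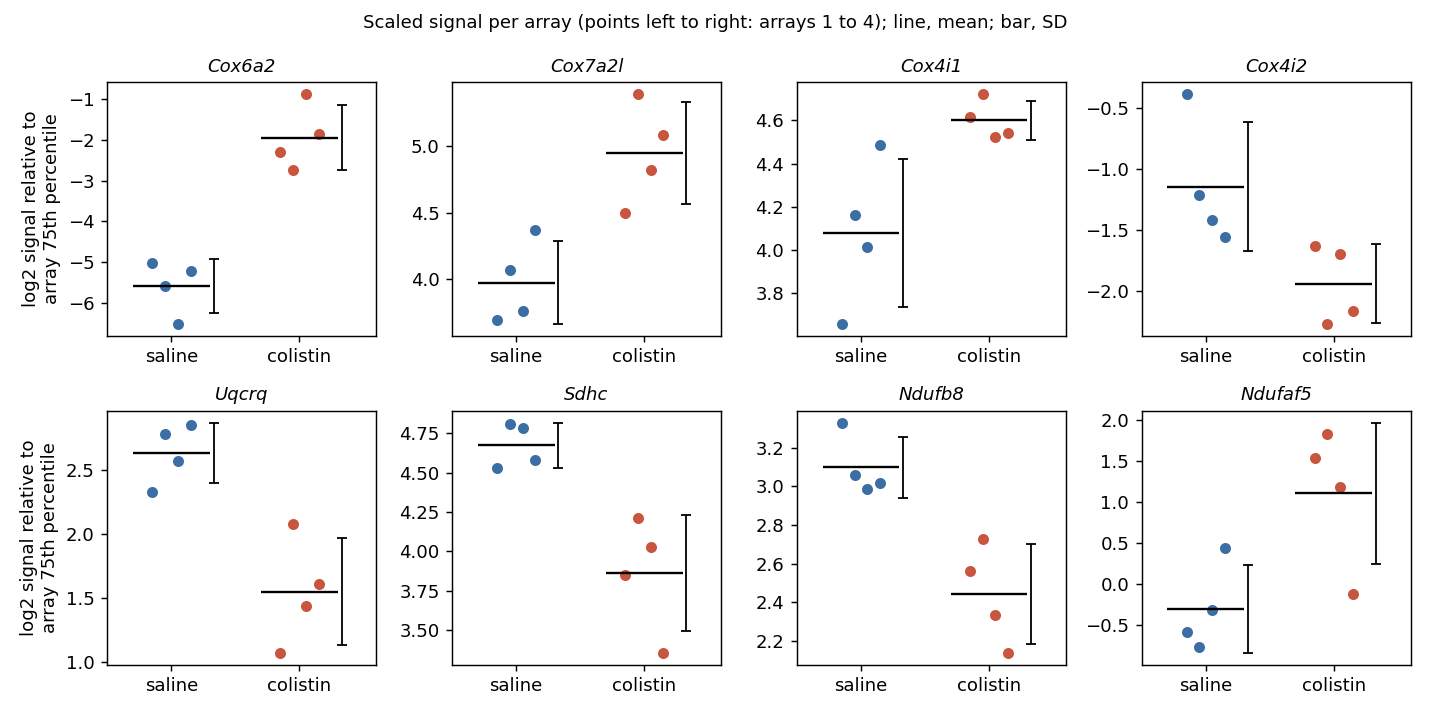
Log2 signal relative to the array's 75th percentile (vertical axis) on the 4 saline (blue) and 4 colistin (red) arrays for 8 members, with a line at the group mean and a bar of 1 SD. The groups do not overlap in 7 of them; in Ndufaf5 colistin array 4, at -0.12, lies inside the saline range.

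Complex V, ATP synthase, had 16 tested genes, with 0 called, a median of -0.32, 3 above 0 and 13 below, and 7 intervals within 2-fold. The median was -0.15 without saline array 4, and -0.13 without saline arrays 1 and 4, where 9 of the 16 lay below 0. The 5 genes of the catalytic F1 head had a median of -0.33, and the 10 of the membrane part and stalk a median of -0.28. Atp5f1a, the alpha subunit, was at 5.01, 5.60, 5.67 and 6.55 after saline and at 5.60, 6.09, 5.94 and 5.20 after colistin. Its group means were both 5.71 and its interval ran from -0.93 to 0.93.

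Atp5f1b, the beta subunit that carries the catalytic sites, was at 2.28, 2.34, 2.50 and 4.38 after saline and at 2.09, 3.0, 2.44 and 2.64 after colistin. Its estimate of -0.33 ± 0.52 (SE, adjusted p = 0.72) turned to 0.17 without saline array 4. Atp5f1c, the rotating gamma subunit, had an estimate of -0.55 ± 0.42 (SE, adjusted p = 0.442), and Atp5pb, the b subunit of the peripheral stalk, had the lowest of the complex, -0.61 ± 0.35 (SE, adjusted p = 0.319). Atp5mc1, a gene for the c ring, was at -0.25 ± 0.28 (SE, adjusted p = 0.607), and Atp5mk, a small membrane subunit, at 0.02 ± 0.33 (SE, adjusted p = 0.975).

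Atp5if1, which stops ATP synthase from running backwards and hydrolysing ATP, had the highest estimate of complex V, 0.39 ± 0.29 (SE, adjusted p = 0.435). It was at 6.28, 6.19, 6.25 and 6.92 after saline and at 6.78, 6.99, 6.77 and 6.66 after colistin. The colistin arrays exceeded saline arrays 1 to 3 and overlapped with saline array 4. Atp5me, a membrane subunit named because its groups did not overlap, was at 7.30 to 7.71 after saline and 6.58 to 7.28 after colistin, an estimate of -0.53 ± 0.30 (SE, adjusted p = 0.311).

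**Figure D3:**
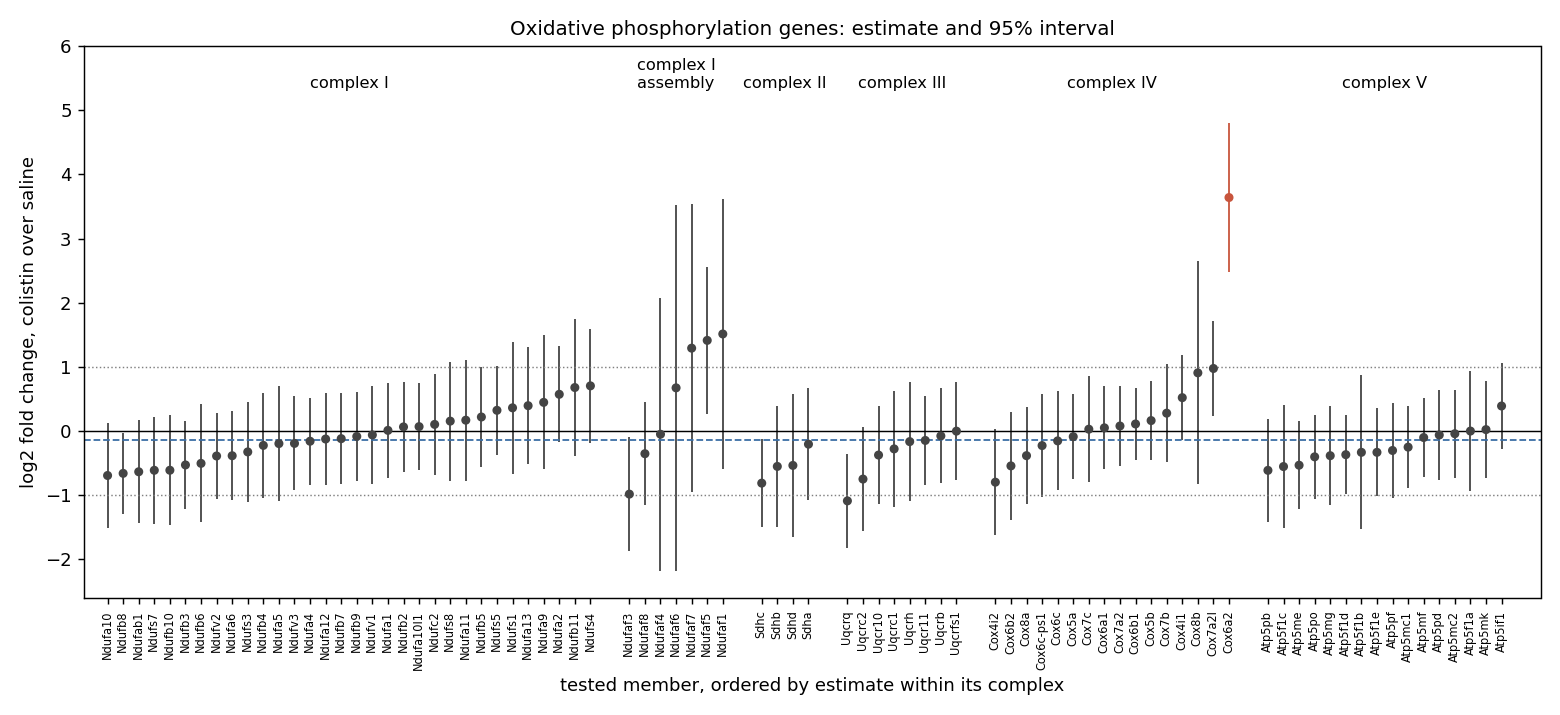
Log2 fold change of colistin over saline (vertical axis) with its 95% interval for 83 of the 84 tested members, ordered by estimate within each complex; dotted lines mark 2-fold and the dashed line the median of all genes, -0.14. Cox6a2, in red, was the called member, and the widest intervals are those of the assembly factors.

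Groups that do not overlap, with every colistin array on one side of every saline array, were found for 9 members, 10.7%, against 18.6% of all genes. Those on the higher side were Cox6a2, Cox7a2l and Cox4i1, and those on the lower side were Atp5me, Cox4i2, Ndufaf3, Ndufb8, Sdhc and Uqcrq. Across all genes 6.89% lay higher and 11.7% lower without overlap. By symbol, complex IV held 3 of its 16 tested members on the higher side and 1, Cox4i2, on the lower. That was 25% of complex IV, against 18.6% of all genes. Cox6a2 entered the test through the colistin arrays alone, so its place on the higher side was largely set beforehand.

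The median of the members varied from array to array within each group. After subtracting each gene's saline mean, the median of the 84 members was -0.27, -0.04, -0.04 and 0.36 on saline arrays 1 to 4 and -0.27, 0.09, -0.06 and -0.40 on colistin arrays 1 to 4. For all genes the same medians stayed between -0.28 and 0.08. On saline array 4, 64 of the 84 members lay above their saline mean, compared with 22 on saline array 1, 48 on colistin array 2 and 21 on colistin array 4. The member medians of the groups overlapped, with the highest and the lowest of the 8 both on the arrays numbered 4.

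The single complexes spread in a similar way. The complex V median was 0.45 on saline array 4 and -0.48 on colistin array 4, where 15 and 1 of its 16 genes lay above the saline mean. Complex III ran from 0.38 to -0.52 and complex II from 0.89 to -0.90 between the same 2 arrays. For complex II, 0 of the 4 genes lay above their saline mean on any colistin array, and also 0 on saline array 1. In complex IV, colistin arrays 1 to 3 lay above 0, at 0.07, 0.14 and 0.11, and colistin array 4 lay at -0.22.

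**Figure D4:**
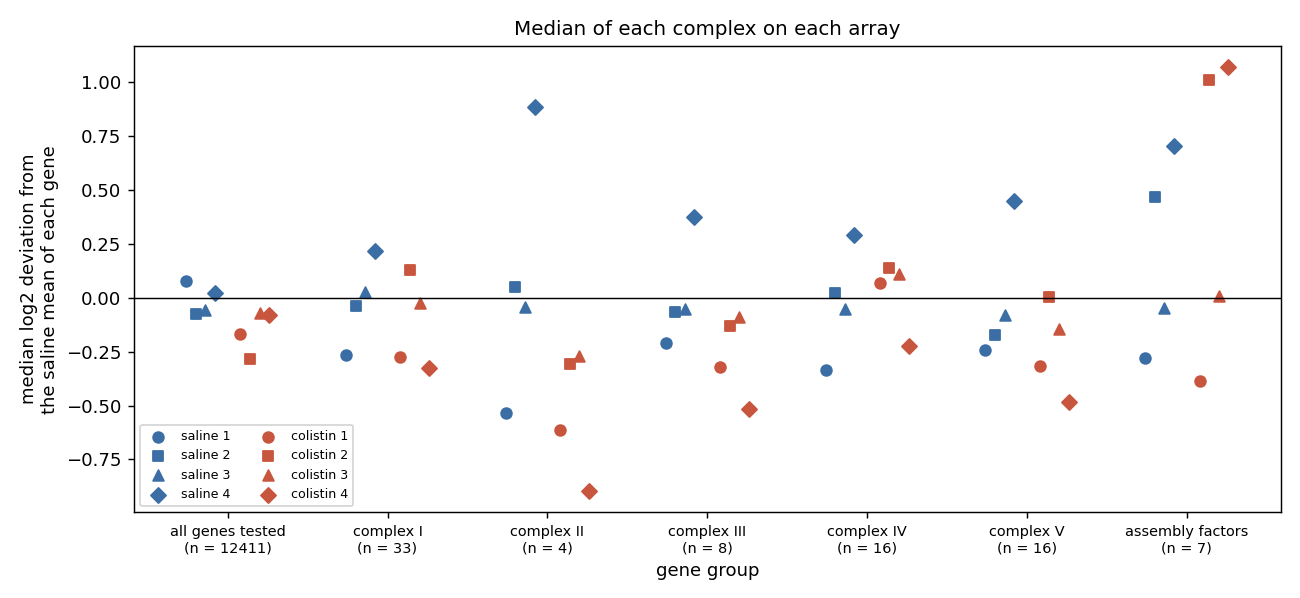
Median, over the genes of each group, of the log2 deviation from each gene's saline mean (vertical axis), for each saline (blue) and colistin (red) array; the number of genes is under each group. Saline array 4 is the highest saline array for each complex and colistin array 4 the lowest colistin array for complexes I to V. All 4 colistin arrays lie below 0 for complexes II and III and also for all genes.

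The headers placed the arrays on 3 slides, each with both groups. Each gene's colistin minus saline difference was taken within each slide, and its median on slides 1 to 3 was -0.33, -0.22 and -0.78 for complex II and -0.28, -0.02 and -0.36 for complex III. It was 0.09, 0.04 and -0.29 for complex I, 0.16, 0.12 and -0.03 for complex IV, and -0.05, 0.08 and -0.32 for complex V. For all genes it was -0.37, -0.07 and -0.07. Complexes II and III were thus below 0 on every slide, and the other complexes changed sign between slides.

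Most markers of the mitochondria-rich tubule segments had estimates below 0. Of 10 proximal tubule markers, Slc22a6 and Aqp1 were called lower and 0 higher. The median log2 fold change was -1.23, with 8 below 0, while Cubn and Slc5a2 were at 1.25 (adjusted p = 0.388) and 1.14 (adjusted p = 0.2). The summed level was 627 to 1017 on the saline arrays and 242 to 411 on the colistin arrays. Of 6 thick ascending limb markers, Egf was called lower, the median was -2.58, and the sum was 33.8 to 73.5 after saline and 2.04 to 8.07 after colistin. Of 6 markers of injured tubules, Havcr1 and Spp1 were called higher. Lcn2 and Krt8 were also above 0, at 1.49 and 0.93, and Vcam1 and Krt18 were below, at -1.51 and -0.53, none of them called. The list summed to 2.81 to 5.83 after saline and 27.0 to 53.6 after colistin. The medians were also below 0 for markers of distal convoluted and connecting tubule (-1.24), principal cells (-1.95), intercalated cells (-2.74), podocytes (-1.42), macrophages (-1.38) and lymphocytes (-0.57). The part of these shifts in the members' values was not tested. Every one of the 84 tested members except Cox6a2, Ndufaf1 and Ndufaf7 was well above background on all 8 arrays.

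Genes of the chain outside the symbol rule, and genes that work beside the members, were read from lists fixed by name. Of 13 tested respiratory chain genes outside the rule, 0 were called, with a median of 0.01. They were the complex III subunit cytochrome c1, the carrier cytochrome c, and the Coq and Etf genes. The largest estimates there were those of Coq6 and Coq5, enzymes of ubiquinone synthesis, at 1.38 ± 0.85 (SE, adjusted p = 0.351) and 1.31 ± 1.09 (SE, adjusted p = 0.485). Coq6 was at -2.75 on saline array 1 and 0.73 to 1.16 on the other saline arrays. Coq5 was at -5.61 on saline array 4 and -1.29 to -0.11 on the other saline arrays, and was well above background on 3 saline arrays. Of 29 assembly factors outside the symbol rule, 0 were called, with a median of -0.06. Cox18, which inserts a complex IV subunit into the inner membrane, was at -2.29 ± 0.89 (SE, adjusted p = 0.188). Timmdc1, a complex I assembly factor, was well above background on 1 saline and 3 colistin arrays, so its test (adjusted p = 0.251) rested on its colistin signal and no fold change is given.

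The 18 genes of mitochondrial biogenesis and mitochondrial DNA expression had 0 calls and a median of 0.20. Tfb2m, a mitochondrial transcription factor, had an estimate of 2.17 ± 1.04 (SE, adjusted p = 0.255). It was at -6.80 on saline array 4, against -3.14 to -1.35 on the other saline arrays, and was well above background on 3 saline arrays. Pprc1, a coactivator related to PGC-1, was well above background on 1 saline and 4 colistin arrays and so was tested only through its colistin signal (adjusted p = 0.11). Its saline values were mostly at background, so no fold change is given. Esrrg and Twnk, named after their values were seen, were lower, at -1.47 ± 0.39 (SE, adjusted p = 0.0977) and -0.78 ± 0.26 (SE, adjusted p = 0.155). They were the 2 genes of the list without overlap, 11.1% against 18.6% of all genes, and 0 lay higher without overlap. The 16 tricarboxylic acid cycle enzymes also had 0 calls and a median of -0.06. Ogdh, of the 2-oxoglutarate dehydrogenase complex, was at -1.04 ± 0.37 (SE, adjusted p = 0.169). The 8 genes that exchange adenine nucleotides and phosphate had 0 calls and a median of -0.51, with Vdac2 at -1.01 and Ckmt1 at -0.76. Unadjusted p was under 0.05 for 1, 6, 3, 3 and 0 genes of these lists, in the order given. The lists had 13, 29, 18, 16 and 8 tested genes, and the share over all genes was 22.7%.

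Which transcript a probe reads was uncertain for part of the members. An annotated pseudogene copy exists for 39 of the 85, with 8 copies for Atp5mg and 7 for Ndufb4, and a probe may bind RNA from such a copy. Of 19 tested members with over 1 kept probe, 8 had probes whose estimates differed in sign, and 0 of those members' 43 probes were called.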

How the data were processed

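Spot intensities were deposited by the authors as 1 scanner table per array, which the submitters' processing notes credit to Agilent Feature Extraction 10.5. The processed signal was, per the file headers, background-corrected but not scaled between arrays. The deposited series table held log2 values that matched the scanner's differences between arrays, shifted by about the 75th percentile and centred per probe; its column medians were 0.233, 0.0232, 0.0865 and 0.196 (saline 1 to 4) and -0.113, -0.230, -0.0893 and -0.0327 (colistin 1 to 4). It served as an alternative.

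Spots flagged as uneven or outlying were left out, copies of a probe were averaged, log2 was taken, and the array's 75th percentile was subtracted. The 23718 probes well above background on 3 or more arrays of a group were kept. RefSeq accessions named 18643 of 30367 probes through a table of build GRCr8, used for names and promoters; the array was designed on an older build. A gene was its brightest kept probe. The groups were compared with limma 3.58.1 under R 4.3.3 (lmFit, eBayes, two-sided), and the fit was tested on simulated data.

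Named members were those called, the 2 largest estimates per complex and direction, and a fixed group, of which 1 member and 1 gene of the lists are not reported here; Atp5me, Cox6b1, Cox8a, Cox8b, Sdhd, Ndufaf4, Ndufaf6 and Ndufaf7 were added after their values were seen. The members and lists were chosen with earlier results of these data known. Alternatives varied the background correction, scaling, filter, probe rule, source table, slide, replicate number and arrays. Normexp (offset 50) used the median spot signal, which replaced the planned mean signal after the files were read. The number of arrays limits the precision.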

Additional observations from a re-analysis of the deposited data

Results flagged for a closer look

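The arrays of each group were searched for outlying values over 33 named members and 6 medians (complexes I to V and the assembly factors), 78 groups of 4 in all. In 7 groups the highest or lowest array stood apart by Dixon's criterion; chance gives about 1 in 20. Saline array 4 was the high one in 4 of them. It was at 4.38 for Atp5f1b (the other saline arrays at 2.28 to 2.50), 6.92 for Atp5if1 (6.19 to 6.28), 7.05 for Atp5mk (6.21 to 6.32) and 6.51 for Sdhb (5.08 to 5.31). Colistin array 2 was high for Atp5mc1, at 5.25 (4.86 to 4.90), and low for Uqcrfs1, at 2.27 (3.0 to 3.04). Colistin array 4 was low for Ndufaf3, at 0.56 (1.52 to 1.72).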

How the results depend on the processing

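Of the 33 named members, 21 kept their direction under every alternative that could be run. The count of called members was 1; it was 3 with normexp (Cox4i1, Cox7a2l and Uqcrq), 0 when a probe had to be well above background on all 8 (where Cox6a2 was not tested), 0 with the slide as a block, and 0 to 1 with each array left out, 0 being without colistin array 4. The 248 genes called overall became 3379 with normexp, 40 with the slide as a block, 143 without saline arrays 1 and 4, and 78 to 255 with each array left out: 98, 106, 110 and 78 without colistin arrays 1 to 4. The medians of complexes II, III and V stayed below 0 and that of complex IV above 0 under all alternatives, while complex I ranged from -0.18 to 0.06. Relative to the median of all genes, complex III was -0.079 in the main setting. It was 0.22 with normexp, 0.10 with no filter and 0.021 with the filter on all 8 arrays. In the same order complex V was -0.17, 0.17, 0.0067 and -0.075. Complex II was -0.40, -0.060, -0.22 and -0.30, and complex IV 0.21, 0.53, 0.37 and 0.29. The assembly factor median of 0.67 was -0.030 with normexp, -0.049 with the filter on all 8 arrays and 0.30 to 1.46 with each array left out. The median of all genes, -0.14, was -0.34 with normexp, -0.09 with quantile scaling and 0.02 with cyclic loess.

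The direction turned for 12 named members, none of them called. With normexp Cox5a was 0.024, Ndufv1 0.071 and Uqcrfs1 0.089; with quantile scaling Ndufa4 was 0.084; with the slide as a block Ndufv1 was 0.035; without saline arrays 1 and 4 Atp5f1b was 0.12, Ndufs1 -0.17 and Uqcrc1 0.083. With each array left out, Atp5f1a ranged from -0.23 to 0.28, Atp5mk from -0.072 to 0.22, Cox6a1 from -0.070 to 0.17, Cox7a2 from -0.026 to 0.16, Cox5a from -0.23 to 0.0076, Uqcrfs1 from -0.093 to 0.19, Atp5f1b from -0.53 to 0.17, Ndufv1 from -0.21 to 0.11 and Sdha from -0.41 to 0.079. The causes of these shifts were not tested.

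No pairing of the arrays by the replicate numbers of the labels was visible: deviations of same-numbered arrays correlated at 0.000472, 0.00243, 0.0134 and -0.0205. These correlations cannot exclude a paired design. With the replicate block, 5 genes and 0 members were called, and Cox6a2 kept its 3.64 with an adjusted p of 0.11.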
